A study of Drosophila melanogaster with 12 samples.

Results

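The genes described here are those that the deposited comparison tables annotate to mitotic spindle organization or mitotic cytokinesis. The annotation named 100 genes. Leaving out Caf1-55, which was set aside by name together with ribosomal, proteasomal and histone genes and a few neuroblast genes, left 99 of the 14251 genes in the deposited tables. The spindle term covers 42 of them, the cytokinesis term covers 62, and 5 carry both. The annotation rule itself used no expression value, but the genes and their grouping by role were chosen with earlier results of these data known.

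Poly(A) RNA was sequenced from the ventral nerve cord, the larval counterpart of the spinal cord, of Drosophila melanogaster at the wandering larval stage (the third instar), reared at 25C with no treatment. There were 12 samples, 4 in each of 3 groups. The WT group is not an unmodified strain: it carries the kdm5 140 mutation and a genomic transgene, gKDM5, that rescues it. The L854F group is homozygous for the kdm5 L854F allele, a single amino acid substitution. The JmjC group is homozygous for kdm5 JmjC*, described in the labels as lacking enzyme activity. The labels do not say how the mutant alleles were made or whether they too sit on a transgene. KDM5 is a chromatin protein whose JmjC domain removes methyl groups from lysine 4 of histone H3. The labels give no sex, no number of larvae per sample and no batch, and do not say whether samples of a group came from separate crosses, so the p-values below measure the spread between these samples, which may be partly technical. The mutants were compared with WT, and with each other, to see how mitotic genes stand in each.

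During mitosis, kinesin motors, microtubule-binding proteins, augmin and centrosome proteins build a bipolar spindle, and the chromosomal passenger complex corrects the attachment of kinetochores to it. The passengers then move to the central spindle, where centralspindlin and the exchange factor Pebble direct a ring of actin, myosin, anillin and septins that divides the cell, and membrane traffic completes the cut. The larval nerve cord holds neurons that no longer divide, glia, and neuroblasts, the dividing stem cells of the nervous system. In whole tissue, more mitotic cells and more RNA per cell cannot be told apart.

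Library totals ranged from 15103631 to 16850705 counts. Values are given as CPM (counts scaled to a common library size), scaled by the trimmed mean of M-values over all 12 samples, unless a level per length is named. Kdm5 itself (FBgn0031759) stood at 665 to 734 CPM in WT, 729 to 795 in L854F and 726 to 813 in JmjC. Its log2 fold change was 0.11 in each mutant against WT (exact two-sided permutation test, p = 0.114 in each, smallest possible 0.0286). Both alleles alter the protein, so this level does not check the labels. Markers of the labelled tissue were present: the 7 neuronal markers summed to 4397 to 5543 CPM over the 12 samples, the 7 glial markers to 1156 to 2056 and the 7 neuroblast markers to 207 to 275. The 7 genes listed as imaginal disc markers summed to 715 to 907 CPM, of which hth made up 500.3 to 652 CPM and the other 6 genes 215 to 262. Whether cells of the cord itself express these genes was not tested, so the sum does not measure disc tissue. The hemocyte, fat body, muscle and salivary gland lists each summed to below 153 CPM.

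In WT, the mitotic genes covered nearly the whole range of expression. Their median level per length was 37.9 TPM (transcripts scaled for gene length and depth), and 89 of the 99 reached 1 TPM, 85 reached 10 and 30 reached 100. Among the 92 with enough counts to test in JmjC against WT, the median was 42.9 TPM, beside 38.1 TPM over all genes tested. The highest levels belonged to genes that also serve non-dividing cells. Act5C, a cytoplasmic actin, stood at 7543 ± 461 TPM (SD, n = 4) and tsr, the actin-severing protein cofilin, at 2643 ± 95.4. The septins pnut and Sep2, which form filaments under the membrane, stood at 333 ± 9.98 and 333 ± 9.74 TPM, and the microtubule plus-end protein Eb1 at 350 ± 22.6.

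Genes with a narrower role in division were lower. The 5 chromosomal passenger and kinetochore genes lay between 24.6 and 40.2 TPM and the 4 augmin genes between 10.5 and 18 TPM. The 7 kinesins lay between 13.4 and 119.6 TPM, with the microtubule-depolymerizing kinesin Klp10A at the top and ncd, a minus-end motor, next at 49.3 ± 1.44. Replicates were close: over the 90 genes tested in every comparison, the median coefficient of variation was 5.96% in WT, 5.41% in L854F and 6.31% in JmjC. The plot of WT levels by role shows this order.

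**Figure D1:**
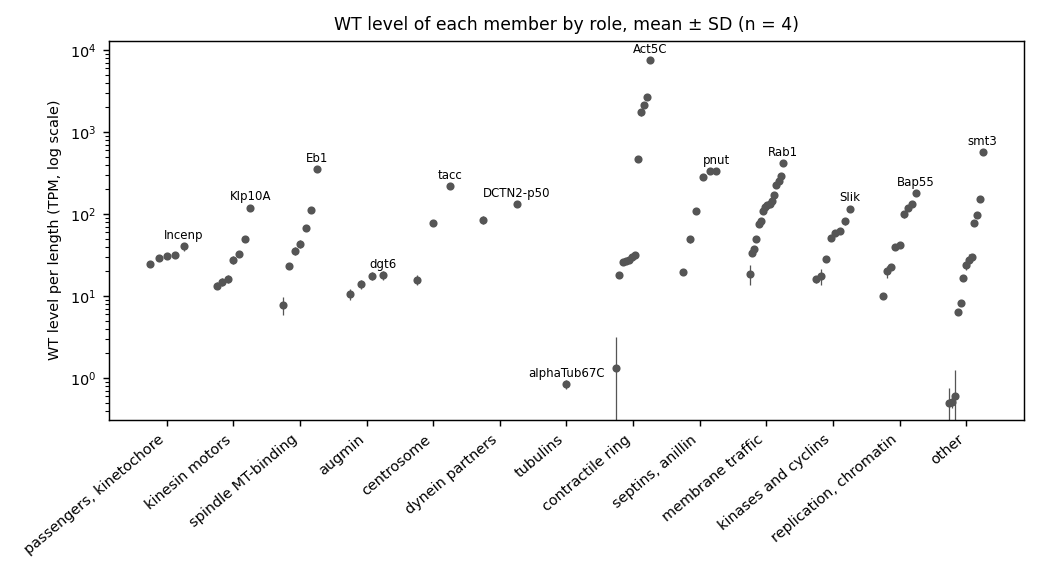
WT level per length of each spindle or cytokinesis gene above 0.2 TPM, grouped by role (x axis), as the mean ± SD of 4 samples on a log axis in TPM; the highest gene of each role is named and the antisense transcripts are left out. The actin gene Act5C stands highest at 7543 TPM, and the passenger and kinetochore genes lie between 24.6 and 40.2 TPM.

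A further 7 genes had too few counts to test, with at most 18 in any sample. They were CG7236, CG9777, Fad2 and the antisense RNAs asRNA:CR44114, asRNA:CR45798, asRNA:CR46044 and asRNA:CR46097. The antisense RNAs lie opposite sau, Rab1, Sep2 and Mink. Mhc, the muscle myosin heavy chain, had 16, 24, 18 and 214 counts in WT, 4, 4, 6 and 61 in L854F and 6, 3, 16 and 37 in JmjC. Replicate 4 was the highest in each group, and Mhc was not called in either mutant against WT.

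In JmjC against WT, mitotic genes rose more often than the background. The edgeR quasi-likelihood F-test called 29 of 92, or 31.5%, at an adjusted p under 0.05, beside 17.3% of the 9244 genes tested. Of these, 25 were higher, which is 27.2% beside 9.66% of all genes, and 4 were lower, which is 4.35% beside 7.67%. The rises were modest: without CG32318, which is described below, they ran from 0.15 to 1.18 on the log2 scale with a median of 0.41 over 24 genes. The median over all 92 was 0.06, beside 0.00 over all genes tested. The samples of both groups did not overlap for 32 of the 92, beside 22.7% of all genes, and 24 of the 25 called higher were among them.

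In L854F against WT, 6 of 91 were called, or 6.59%, beside 5.54% of the 9105 genes tested, so the share lay near the background. The 5 higher were borr, dgt4, feo, scra and CycB3, which is 5.49% beside 3.04% of all genes, and the 1 lower was del, which is 1.1% beside 2.49%. The median log2 fold change was 0.04, and 14 of the 91 did not overlap between groups, beside 12.7% of all genes. DESeq2 in place of edgeR called 12, of which 6 were the same genes. The DESeq2 share over all genes is not given here. The authors' deposited DESeq2 values gave 10 of 98, or 10.2%, beside 4.72% of all genes. The share near the background thus holds for the edgeR fit only. The sets of 6 and 29 share their WT samples, so their values are given side by side below without a test of their overlap.

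In L854F against JmjC, which uses no WT sample, 22 of 90 were called, or 24.4%, beside 16.0% of the 9207 genes tested. L854F was the lower in 18, which is 20% beside 8.8% of all genes, and the higher in 4, which is 4.44% beside 7.2%. The samples did not overlap for 26 of the 90, beside 20.7% of all genes. With the replicate number as a block, 25 were called, 21 of them the same genes.

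**Figure D2:**
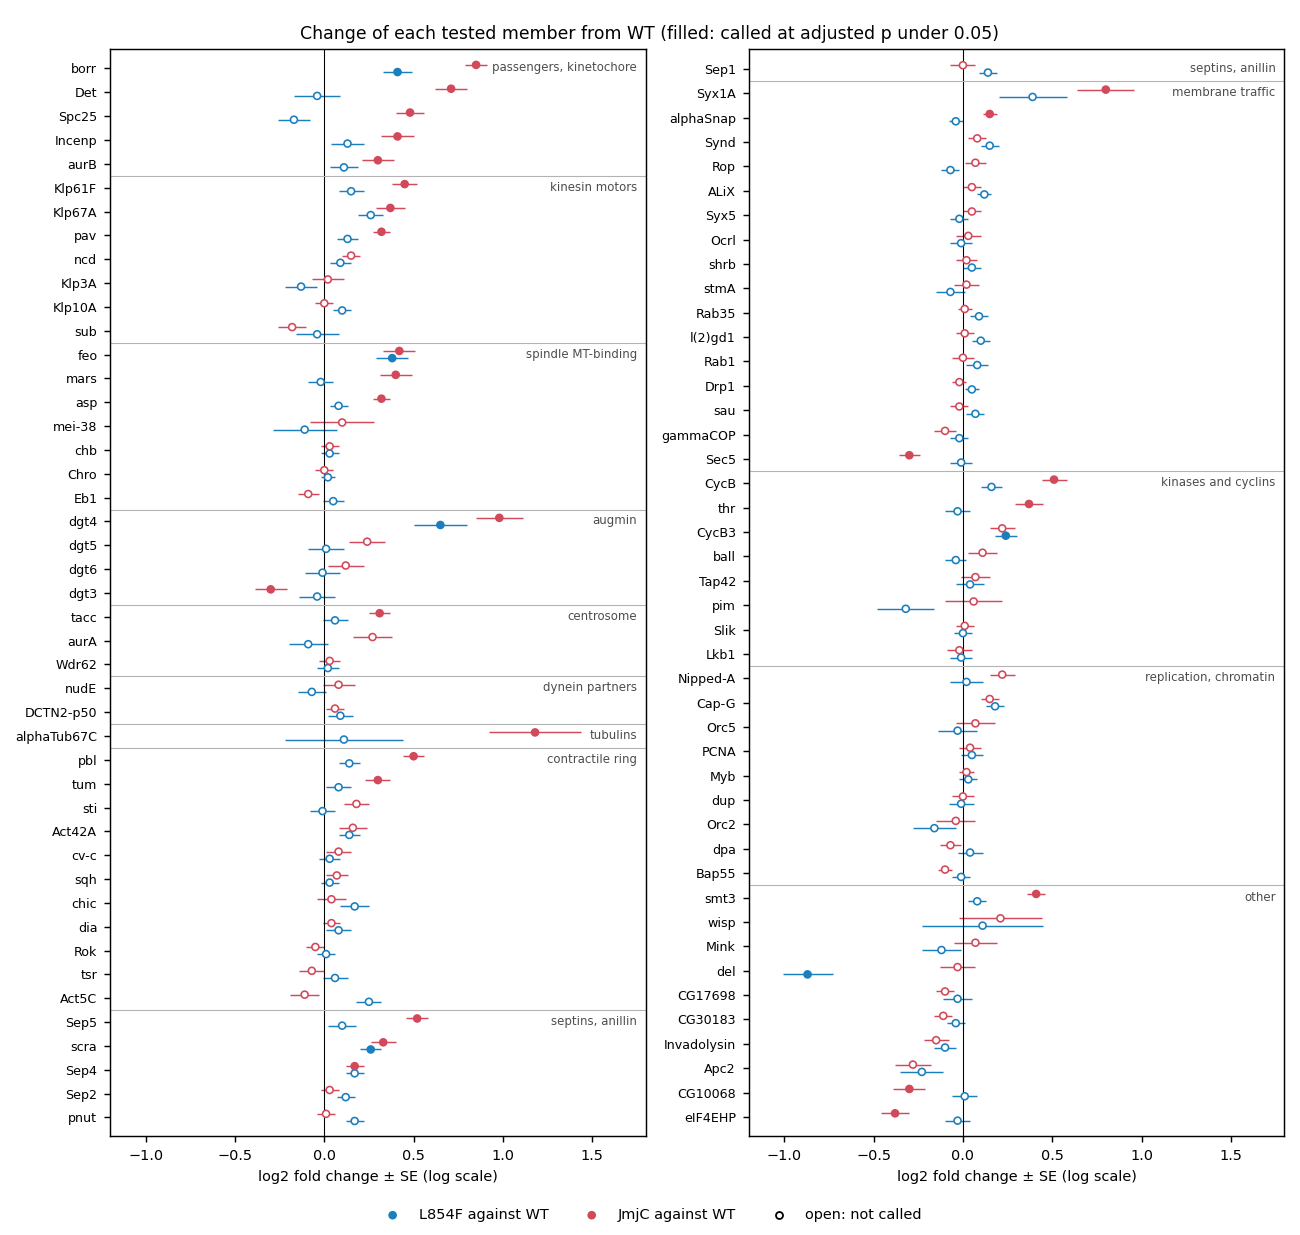
Log2 fold change from WT (x axis, ± SE of the fit) of the tested genes, ordered by role, for L854F (blue) and JmjC (red); filled points passed an adjusted p under 0.05. CG32318 and Mhc are left out for their low counts. Of the others, 1 gene that was not called is not drawn. Filled red points lie to the right in 24 genes and to the left in 4, and filled blue points to the right in 5 and to the left in 1.

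The chromosomal passenger complex and the kinetochore gene Spc25 showed the most uniform change. All 5 genes with these roles were called higher in JmjC against WT, beside 9.66% of all genes tested. The passenger complex joins the kinase aurB to its scaffold Incenp, to borr (Borealin-related) and to Det (Deterin, the fly survivin). Spc25 is a subunit of the NDC80 complex that binds microtubules at kinetochores.

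Borr (FBgn0032105, 2L:9251472-9253118 on the minus strand, build BDGP6.54) had 18, 17.3, 16.2 and 18.3 CPM in the 4 WT samples, at 24.3, 22.5, 25.3 and 20.4 in L854F and at 33.0, 31.1, 31.3 and 30.5 in JmjC. The 3 groups did not overlap, with L854F between WT and JmjC. Borr rose by a log2 fold change of 0.85 ± 0.06 (SE) in JmjC against WT (adjusted p = 6.91e-06), a 1.81-fold rise, and 0.41 ± 0.08 in L854F against WT (adjusted p = 0.0153). L854F lay below JmjC by a log2 difference of -0.44 (adjusted p = 0.00248). Leaving out L854F replicate 1 ended the call in L854F against WT (adjusted p = 0.0523).

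Det (FBgn0264291, 3R:17149667-17150455, plus strand) stood at 6.90, 7.75, 7.41 and 8.01 CPM in WT, at 7.04, 6.07, 8.62 and 7.62 in L854F and at 12.9, 11.4, 12 and 12.8 in JmjC. JmjC lay above both other groups, which overlapped each other. Det rose by 0.71 ± 0.09 on the log2 scale in JmjC (adjusted p = 0.000439), its value in L854F was -0.04 ± 0.13 (adjusted p = 0.93), and the direct difference between the mutants was -0.74 (adjusted p = 0.00195).

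Spc25 (FBgn0087021, 3R:12961745-12963249, plus strand) stood at 14.5, 14.4, 13.3 and 13.6 CPM in WT, at 12.9, 11.2, 13.4 and 12.3 in L854F and at 18.5, 18.2, 20.1 and 21.0 in JmjC. Again JmjC lay above both other groups. Spc25 had log2 fold changes of 0.48 ± 0.08 in JmjC (adjusted p = 0.0014) and -0.17 ± 0.09 in L854F (adjusted p = 0.348), and L854F lay below JmjC by a difference of -0.64 (adjusted p = 0.000605).

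Incenp and aurB changed less. Incenp stood at 43.2, 45.3, 44.7 and 55.3 CPM in WT, at 54.0, 55.5, 51.6 and 44.9 in L854F and at 65.8, 63.7, 54.6 and 66.2 in JmjC. Replicate 4 of WT lay above replicate 3 of JmjC, so these groups overlapped. The log2 fold change in JmjC was 0.41 ± 0.09 (adjusted p = 0.00904), and the difference of -0.28 between L854F and JmjC passed the test (adjusted p = 0.041) but was lost without any of JmjC replicates 1, 2 and 4 or L854F replicates 1, 3 and 4. AurB stood at 19.0, 16.3, 16.4 and 18 CPM in WT and at 20.3, 19.5, 24.5 and 21.4 in JmjC. These groups did not overlap, though the highest WT sample came close to the lowest JmjC sample. Its log2 fold change of 0.30 ± 0.09 (adjusted p = 0.0405) was lost with no filter on low counts (adjusted p = 0.0511) and without WT replicate 2, 3 or 4 or JmjC replicate 1, 3 or 4, and the 4 L854F samples lay at 18 to 20.1 CPM.

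**Figure D3:**
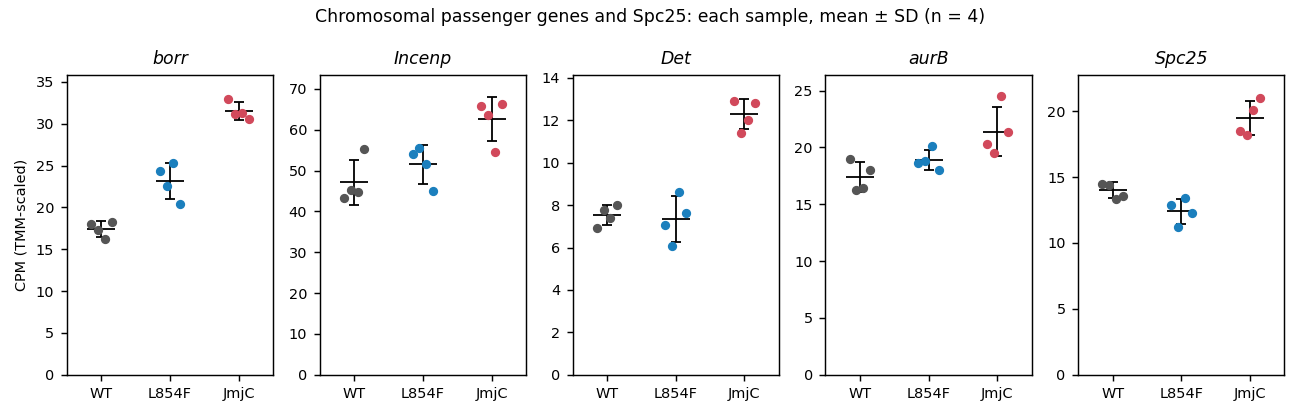
CPM (y axis, from 0) of the 4 chromosomal passenger genes and Spc25 in each sample of WT, L854F and JmjC, with the mean ± SD (n = 4) as bars. JmjC lies above WT in every panel except Incenp, where the groups overlap; for borr, the L854F samples at 20.4 to 25.3 CPM lie between the other groups.

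Kinesin motors rose in JmjC in 3 of 7 cases, or 42.9% beside 9.66% of all genes tested. By edgeR none was called in L854F against WT (2 at an unadjusted p under 0.05, none with DESeq2), beside 5.54% of all genes tested. Klp61F, a bipolar kinesin that pushes spindle poles apart (FBgn0004378, 3L:1241568-1245910, minus strand), stood at 45.8, 49.1, 56.4 and 48.5 CPM in WT, at 55.5, 52.9, 57.5 and 56.3 in L854F and at 68.8, 65.8, 66.6 and 72.0 in JmjC. JmjC lay above both other groups, and L854F overlapped WT. Its log2 fold change was 0.45 ± 0.07 in JmjC (adjusted p = 0.000927) and 0.15 ± 0.07 in L854F (adjusted p = 0.25), with a difference of -0.29 between the mutants (adjusted p = 0.00341). Pav (Pavarotti), the motor subunit of centralspindlin, stood at 47.9 to 50.4 CPM in WT, 50 to 58.8 in L854F and 59.7 to 64.2 in JmjC, with a log2 fold change of 0.32 ± 0.05 in JmjC (adjusted p = 0.000823). Its L854F samples lay below all JmjC samples, but the difference of -0.18 missed the threshold (adjusted p = 0.0578), which it passed with library totals as the scaling (adjusted p = 0.0472), in the fit of all 12 samples (0.0235) and without L854F replicate 2 (0.0258). Klp67A, a kinesin that shortens spindle microtubules, was named after its values were seen: it rose in JmjC by 0.37 ± 0.08 (adjusted p = 0.0118). In L854F, Klp67A had 0.26 ± 0.07 without overlap with WT, but was not called (adjusted p = 0.0674). Between the mutants its difference was -0.10 (adjusted p = 0.353). The other 4 were not called, with log2 fold changes in JmjC of 0.00 for Klp10A and 0.15 for ncd, which passed without JmjC replicate 3 (adjusted p = 0.0461).

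CG32318, annotated in the tables as a partial kinesin-like mRNA, had no count in any WT or L854F sample. It had 42, 38, 47 and 30 counts in the 4 JmjC samples, or 2.41 ± 0.423 CPM. Against a floor of 3 counts per library, this is at least 13.3-fold higher than WT and at least 12.8-fold higher than L854F, counting error only. CG32318 (3L:1246073-1246923, minus strand) lies beside Klp61F on the same strand, and its annotation names the same kinesin family, so reads shared between these genes could move its value, which is uncertain.

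Of the 7 other microtubule-binding proteins of the spindle, 3 rose in JmjC, or 42.9% beside 9.66% of all genes tested. In L854F 1 rose, or 14.3% beside 3.04%. Feo (Fascetto), which crosslinks antiparallel microtubules at the spindle midzone, stood at 41.6, 39.1, 34.7 and 45.9 CPM in WT, at 52.9, 54.3, 56.1 and 46.2 in L854F and at 57.9, 56.5, 49.1 and 52.1 in JmjC. Both mutants lay above WT and overlapped each other. Feo rose by 0.38 ± 0.09 in L854F (adjusted p = 0.0322) and 0.42 ± 0.09 in JmjC (adjusted p = 0.00683). The call in L854F was lost without any of WT replicates 1, 2 and 3 or L854F replicates 1, 2 and 3.

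Mars, a microtubule-stabilizing protein of the HURP family, rose in JmjC by 0.40 ± 0.09 (adjusted p = 0.00945), with 57.4 to 71.0 CPM in WT and 72.6 to 93.4 in JmjC. Asp (Abnormal spindle), which focuses spindle poles, rose by 0.32 ± 0.05 (adjusted p = 0.00159), with 68.0 to 71.8 CPM in WT and 80.3 to 90.4 in JmjC. L854F lay below JmjC for both, by -0.42 for mars (adjusted p = 0.00295) and by -0.24 for asp (adjusted p = 0.0172). The asp difference was lost without JmjC replicate 1 or L854F replicate 1. Eb1 and Chro, the most expressed genes of this role, had log2 fold changes of -0.09 and 0.00 in JmjC and were not called.

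The augmin complex, which recruits gamma-tubulin onto existing microtubules, did not move as a unit. Dgt4 (FBgn0026085, X:4113701-4114929, plus strand) stood at 3.87, 3.69, 4.62 and 4.91 CPM in WT, at 6.43, 6.88, 7.56 and 6.05 in L854F and at 7.70, 8.46, 8.60 and 8.93 in JmjC. The 3 groups did not overlap. Dgt4 had log2 fold changes of 0.98 ± 0.13 in JmjC (adjusted p = 0.000515) and 0.65 ± 0.15 in L854F (adjusted p = 0.0281), and the difference of -0.32 between the mutants missed the threshold (adjusted p = 0.0885). The L854F call was lost without WT replicate 1 or 2 or L854F replicate 1, 2 or 3. Dgt4 overlaps Nsun2 and Tip60 on the opposite strand, and whether the counting used strand is not given in the sources used here, so reads of those genes could enter its value.

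Dgt3 moved the other way in JmjC, from 14.2, 14.3, 13.9 and 17.3 CPM in WT to 12.6, 12.3, 11.8 and 11.8. The groups did not overlap, and replicate 4 stood apart in WT. Its log2 fold change of -0.30 ± 0.09 (adjusted p = 0.0447) was lost without any single one of the 8 samples, with DESeq2 and with no filter on low counts. Dgt5 and dgt6 were not called.

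Among the centrosome genes, tacc, which stabilizes microtubules at centrosomes, rose in JmjC from 279, 311, 297 and 266 CPM to 351, 341, 350.2 and 382, without overlap. Tacc rose by 0.31 ± 0.06 (adjusted p = 0.00502). The difference of -0.24 between L854F and JmjC (adjusted p = 0.0347) was lost without any of JmjC replicates 1, 2 and 4 or L854F replicates 1, 2 and 3. AurA, the kinase that matures centrosomes, was not called in JmjC against WT (0.27 ± 0.11, adjusted p = 0.125) but was lower in L854F than in JmjC by a log2 difference of -0.35 (adjusted p = 0.0325), which was lost without any of JmjC replicates 1 to 3 or L854F replicates 1, 2 and 4. Wdr62 was not called in any comparison, nor were the dynein partners nudE and DCTN2-p50, a subunit of dynactin.

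The single tubulin with the annotation, alphaTub67C, is the maternal alpha-tubulin of the ovary and early embryo. It had 10, 12, 11 and 9 counts in WT, 13, 6, 11 and 14 in L854F and 21, 30, 20 and 23 in JmjC, so JmjC lay above both other groups at a low level. The log2 fold change was 1.18 ± 0.26 in JmjC against WT (adjusted p = 0.0107). The difference of -1.06 between L854F and JmjC (adjusted p = 0.0365) was lost with the replicate number as a block (adjusted p = 0.0619), with DESeq2 (adjusted p = 0.0516), with no filter on low counts (adjusted p = 0.069), and without JmjC replicate 1, 2 or 4 or any single L854F sample. Some germline markers moved with it. The 9 male germline genes summed to 3.57 to 5.38 CPM in WT, 2.32 to 4.23 in L854F and 13.2 to 18.5 in JmjC. Of the 3 tested, vas (2.35, adjusted p = 0.000754) and bam (2.93, adjusted p = 1.86e-06) were called higher in JmjC on the log2 scale, and can was not (-0.87, adjusted p = 0.15). Without bam and vas, the other 7 summed to 1.67 to 3.06, 0.938 to 2.24 and 0.732 to 2.26 CPM in WT, L854F and JmjC. BetaTub85D, a tubulin of developing sperm, was at 0 in all 12 samples, and dj and ocn were at 0 in the 4 JmjC samples. Their part in the alphaTub67C result was not tested.

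Among the contractile ring and its upstream regulators, 2 of 12 genes were called in JmjC, both higher, or 16.7%. Over all genes tested, 9.66% were called higher and 17.3% in either direction. Pbl (Pebble), an exchange factor needed to assemble the ring (FBgn0003041, 3L:7896109-7911954, minus strand), stood at 52.1, 55.5, 58.9 and 57.3 CPM in WT, at 60.9, 58.6, 64.0 and 63.1 in L854F and at 76.4, 78.5, 85.5 and 76.6 in JmjC. JmjC lay above both other groups. Pbl had log2 fold changes of 0.50 ± 0.06 in JmjC (adjusted p = 0.000181) and 0.14 ± 0.06 in L854F (adjusted p = 0.201), and the mutants differed by -0.36 (adjusted p = 0.00174). Tum (Tumbleweed), the partner of Pavarotti in centralspindlin, was named after its values were seen: it rose in JmjC by 0.30 ± 0.07 (adjusted p = 0.0146), with 28.4 to 33.5 CPM in WT and 34.9 to 41.4 in JmjC.

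The structural genes of the ring, among them sqh (the myosin regulatory light chain), chic (profilin), dia (a formin) and sti (citron kinase), were not called by edgeR in either mutant against WT. Over the 12 genes of this role, 4 had an unadjusted p under 0.05 in L854F against WT, none was called by edgeR, and DESeq2 called the actins Act42A and Act5C. Act42A had a log2 fold change of 0.14 ± 0.06 there (edgeR adjusted p = 0.196). Act5C stood at 5868 to 6632 CPM in WT, 7228 to 7839 in L854F and 5320 to 6697 in JmjC. L854F lay above both other groups. The difference of 0.36 ± 0.08 between L854F and JmjC passed the test (adjusted p = 0.0113), while 0.25 ± 0.07 in L854F against WT missed it (adjusted p = 0.0567) and passed with DESeq2 (adjusted p = 9.37e-05). Act5C and Act42A have nearly the same coding sequence, so the split of reads between them is uncertain.

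Of 6 septin and anillin genes, 3 rose in JmjC, or 50% beside 9.66% of all genes tested. Sep5 stood at 14.6, 16.4, 16.1 and 16.3 CPM in WT, at 15.5, 16.6, 17.6 and 18.1 in L854F and at 22.3, 23.1, 23.2 and 22.5 in JmjC, which lay above both other groups. Sep5 rose by 0.52 ± 0.06 (adjusted p = 0.000315), with a difference of -0.42 between the mutants (adjusted p = 0.00259). Scra (Scraps), the fly anillin that links ring and membrane, stood at 94.2, 86.3, 101 and 103 CPM in WT, at 119, 116, 117 and 109 in L854F and at 122, 128, 126 and 107 in JmjC.

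Both mutants lay above WT for scra and overlapped each other, with log2 fold changes of 0.26 ± 0.06 in L854F (adjusted p = 0.0328) and 0.33 ± 0.07 in JmjC (adjusted p = 0.0101). The L854F call was lost with library totals as the scaling (adjusted p = 0.0591) and without WT replicate 1 or 2 or L854F replicate 1, 2 or 3. Sep4, named after its values were seen, rose in JmjC by 0.17 ± 0.05 (adjusted p = 0.0265), a call lost without WT replicate 2, 3 or 4 or JmjC replicate 1 or 2. In L854F, Sep4 also had 0.17 ± 0.05 without overlap with WT, but was not called (adjusted p = 0.0861). Between the mutants its difference was 0.00 (adjusted p = 0.98). The more abundant septins pnut and Sep2 had log2 fold changes of 0.01 and 0.03 in JmjC and 0.17 and 0.12 in L854F, and edgeR called neither against WT. DESeq2 called pnut in L854F against WT (adjusted p = 0.0256, against 0.103 by edgeR). With the replicate number as a block, pnut was higher in L854F than in JmjC by 0.17 (adjusted p = 0.0288), against 0.0747 without it.

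Among 8 kinases, cyclins and their partners, CycB and thr rose in JmjC, or 25% beside 9.66% of all genes tested. CycB3 rose in L854F, or 12.5% beside 3.04%. CycB, the mitotic cyclin B, stood at 68.7, 69.7, 79.8 and 70.6 CPM in WT, at 81.1, 82.0, 78.9 and 80 in L854F and at 109, 102, 93.5 and 108 in JmjC. JmjC lay above both other groups. For CycB the log2 fold change was 0.51 ± 0.07 in JmjC (adjusted p = 0.000398) and 0.16 ± 0.06 in L854F (adjusted p = 0.151), which passed without WT replicate 3 (adjusted p = 0.0431). The mutants differed by -0.35 (adjusted p = 0.00202).

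Thr, a separase subunit, rose in JmjC by 0.37 ± 0.08 (adjusted p = 0.00961), with 31.2 to 38.2 CPM in WT and 39.1 to 47.6 in JmjC, and L854F lay below JmjC by -0.39 (adjusted p = 0.00271). CycB3, a second B-type cyclin, stood at 63.9, 64.2, 67.1 and 74.1 CPM in WT, at 81.5, 79.4, 79.9 and 77.6 in L854F and at 81.2, 85.5, 69.3 and 78.0 in JmjC. L854F lay above WT and JmjC overlapped both. The log2 fold change was 0.24 ± 0.06 in L854F (adjusted p = 0.0318), lost with library totals (adjusted p = 0.0505) and without any single L854F sample or WT replicate 1, 2 or 3, and 0.22 ± 0.07 in JmjC (adjusted p = 0.0622), which passed without WT replicate 4 (adjusted p = 0.0367) or JmjC replicate 3 (adjusted p = 0.0149). Slik and Tap42, the most expressed genes of this role, were not called in any comparison.

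Membrane traffic genes were the largest role, and 3 of 16 were called in JmjC, or 18.8% beside 17.3% of all genes tested, a share near the background. Sec5, a subunit of the exocyst that tethers vesicles, fell from 43.7, 43.5, 46.8 and 46.1 CPM to 35.3, 38.4, 38.7 and 34.2, without overlap. Its log2 fold change was -0.30 ± 0.06 (adjusted p = 0.00538), and L854F, at 43.2 to 47.3 CPM, lay above JmjC by 0.29 (adjusted p = 0.00905). AlphaSnap, which takes apart SNARE complexes, rose by 0.15 ± 0.04 (adjusted p = 0.0427), a call lost with no filter on low counts (adjusted p = 0.1) and without any of the 4 WT samples or JmjC replicates 1, 2 and 4. The small GTPase Rab1 and the ESCRT subunit shrb were not called in any comparison.

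Syx1A, a membrane SNARE known for transmitter release, and eIF4EHP, a cap-binding repressor of translation, gave opposite values in JmjC and share a locus. Syx1A (3R:24101600-24105763) lies inside eIF4EHP (3R:24063077-24108960) on the same minus strand. Syx1A stood at 21.3, 39.3, 39.4 and 30.2 CPM in WT, at 45.6, 32.4, 38.5 and 53.7 in L854F and at 50.3, 57.1, 58.7 and 60.2 in JmjC. JmjC lay above WT and overlapped L854F.

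The log2 fold change in JmjC was 0.80 ± 0.16 for Syx1A (adjusted p = 0.00595) and -0.38 ± 0.08 for eIF4EHP (adjusted p = 0.00812). Syx1A was not called between the mutants (-0.40, adjusted p = 0.0543), but was with the replicate number as a block (adjusted p = 0.0285), with library totals (0.0402), with DESeq2 (0.0297) and without L854F replicate 4 (adjusted p = 0.0115). Summed, both genes stood at 285 ± 18.9 CPM in WT and 250.5 ± 21.6 in JmjC (n = 4 each, exact two-sided permutation test, p = 0.0857). Syx1A made up 7.41 to 14.3% of that sum in WT, 12.3 to 16.2% in L854F and 20.3 to 25.8% in JmjC. How reads were divided within the locus is not given in the sources used here, so both values are uncertain.

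**Figure D4:**
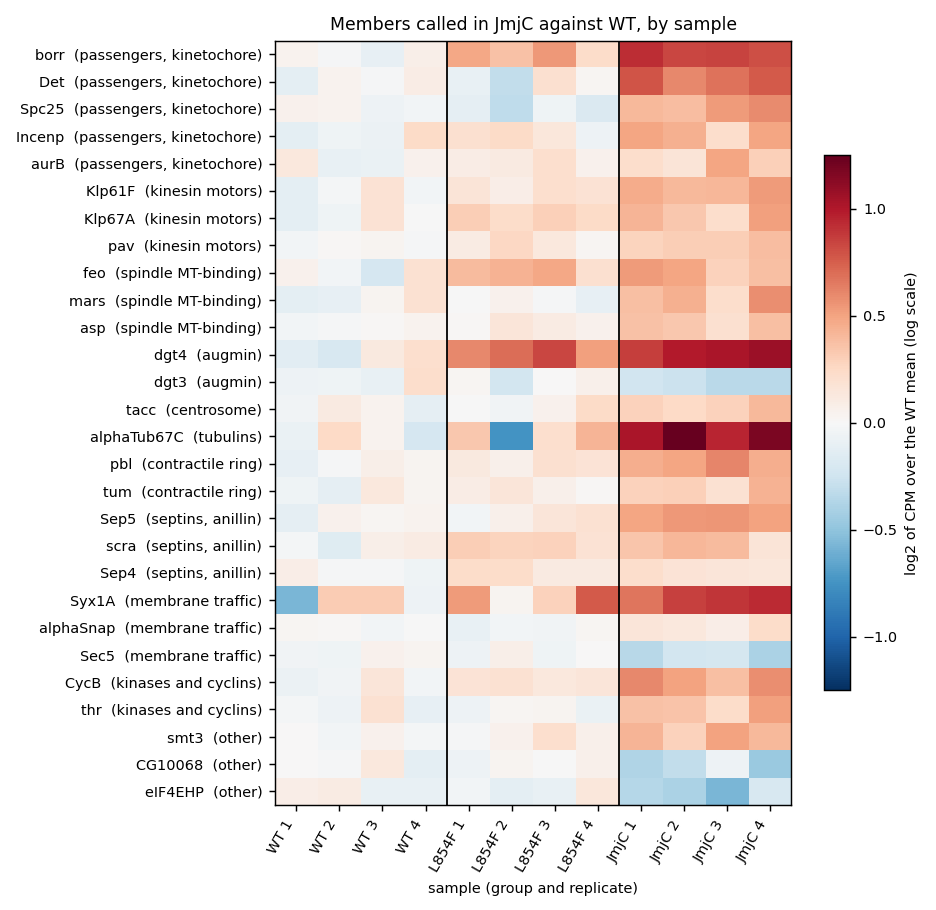
Log2 of CPM over the WT mean (colour, red above and blue below) for each gene called in JmjC against WT except CG32318, by sample (columns) and role (rows). The 4 JmjC columns are red for 24 genes and blue for dgt3, Sec5, CG10068 and eIF4EHP. In all 4 L854F columns, 14 of the 24 lie above the WT mean too, among them borr, dgt4, feo and scra, which were called there. The 24 genes were picked as higher than these same WT samples, so the count of 14 does not test for a shared change.

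Outside these roles, smt3, which encodes the protein modifier SUMO, rose in JmjC from 183, 178, 189 and 179.9 CPM to 245, 223, 258 and 242, without overlap. Its log2 fold change was 0.41 ± 0.05 (adjusted p = 0.000347), and L854F, at 181 to 211 CPM, lay below JmjC by -0.32 (adjusted p = 0.00528). CG10068, for which no role is given here, was lower in JmjC by -0.30 ± 0.09 (adjusted p = 0.048) in overlapping groups. That call was lost with library totals (adjusted p = 0.0585) and without WT replicate 1, 2 or 3 or JmjC replicate 1, 2 or 4, and its difference of 0.31 between L854F and JmjC (adjusted p = 0.0345) was lost without JmjC replicate 1, 2 or 4 or any single L854F sample. The 9 replication and chromatin genes of the annotation, among them PCNA, the sliding clamp of DNA polymerase, were not called by edgeR in any of the 3 comparisons. An unadjusted p under 0.05 was reached by 1 for L854F and 2 for JmjC, each set against WT, and by 0 between the mutants, and DESeq2 called Cap-G in L854F and Nipped-A in JmjC.

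Among the genes called in L854F against WT, the largest change was a fall of del (Deadlock), a germline protein of piRNA source loci (FBgn0086251, 2L:21145137-21148546, minus strand). It stood at 12.3, 11.9, 10.9 and 13.4 CPM in WT, at 5.27, 6.07, 8.09 and 7.08 in L854F and at 13.5, 12.1, 10.7 and 11.1 in JmjC. L854F lay below both other groups, which overlapped each other. The log2 fold change was -0.87 ± 0.14 in L854F (adjusted p = 0.00377) and -0.03 ± 0.10 in JmjC (adjusted p = 0.85), and the mutants differed by -0.83 (adjusted p = 0.00273). Del was called under every alternative tried. It overlaps pths on the opposite strand, so reads of pths could enter its value.

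Within the annotation, the called genes were spread over both terms. In JmjC, 14 of 42 spindle genes rose and 1 fell, or 33.3% and 2.38%, and 15 of 55 tested cytokinesis genes rose and 3 fell, or 27.3% and 5.45%. Over all genes tested, 9.66% were called higher and 7.67% lower. Of the 5 genes with both terms, Det, aurB, feo and pav rose and Slik did not pass. By chromosome, the 99 genes lie on 2L (18), 2R (25), 3L (15), 3R (26) and X (15). Of the 25 genes called higher in JmjC, 16 overlap no other annotated gene. The other 9 overlap a gene on either strand, whose reads could enter their values: Spc25, Klp61F, Klp67A, dgt4, mars, tacc, alphaSnap, thr and Syx1A. Of the 4 called lower, Sec5, CG10068 and eIF4EHP also do.

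Other genes of mitosis, taken from lists of standard components and not annotated to the 2 terms, are given for comparison. Of 16 mitotic control genes, 5 rose and 1 fell in JmjC against WT, or 31.2% and 6.25% beside 9.66% and 7.67% of all genes tested. Cdk1, the main mitotic kinase, rose by 0.69 ± 0.08 (adjusted p = 0.000131), from 34.5 to 40.8 CPM to 53.5 to 65.0, and fzy, the activator of the anaphase-promoting complex, by 0.42 ± 0.06 (adjusted p = 0.000527). Mad2 rose by 0.38 (adjusted p = 0.00206), Bub1 by 0.19 (adjusted p = 0.045) and Wee1 by 0.16 (adjusted p = 0.037), and the separase gene Sse fell by 0.52 on the log2 scale (adjusted p = 0.0287). Of 16 kinetochore genes, 5 rose and 1 fell, again 31.2% and 6.25%. Cmet, a kinetochore kinesin, rose by 1.10 ± 0.08 (adjusted p = 9.79e-06), from 33.5 to 45.6 CPM to 79.8 to 85.9. Nuf2, which sits in the same complex as Spc25, rose by 0.62 ± 0.09 (adjusted p = 0.000823), Spindly by 0.60 (adjusted p = 6.47e-05), Mis12 by 0.51 (adjusted p = 0.0241) and Spc105R by 0.37 (adjusted p = 0.0119), and Zw10 fell by 0.34 on the log2 scale (adjusted p = 0.00421).

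Genes of neighbouring processes are given next, with no test of a difference between lists. None of 6 condensin genes was called by edgeR in JmjC against WT, with 0 at an unadjusted p under 0.05 and 0 by DESeq2, and of 16 DNA replication genes E2f1 rose and RnrL fell, which is 12.5% beside 17.3% of all genes tested. In L854F against WT, fzr was called higher among the mitotic control genes and Spindly among the kinetochore genes, each 6.25% of its list beside 3.04% of all genes tested. No edgeR or DESeq2 call was made there among condensin genes (0 at an unadjusted p under 0.05) or replication genes (2 at an unadjusted p under 0.05). Between the mutants, L854F was lower for 5 of 16 mitotic control genes and 7 of 16 kinetochore genes, or 31.2% and 43.8% beside 8.8% of all genes tested. It was higher for the kinetochore gene Zw10 and the replication genes Mcm2 and Orc6, or 6.25% and 12.5% of these lists beside 7.2%. The plot of the share of genes called sets these counts beside the background.

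**Figure D5:**
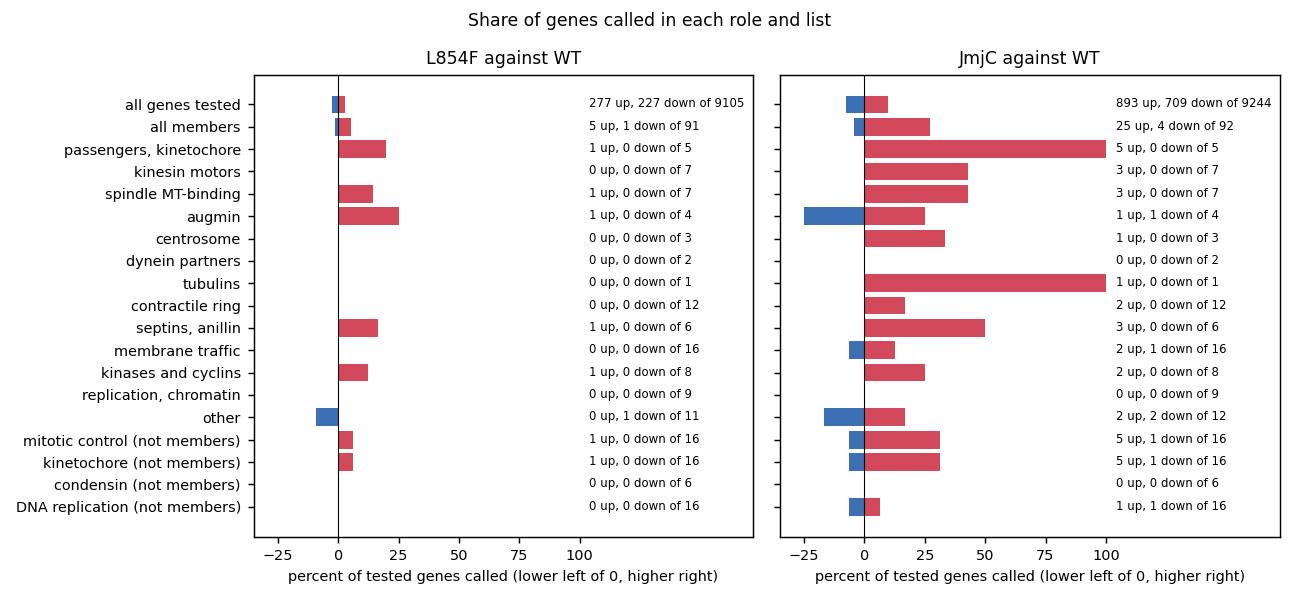
Percent of tested genes called higher (red, right of 0) and lower (blue, left of 0) in L854F against WT and JmjC against WT, for all genes tested, all spindle and cytokinesis genes, each role and 4 lists of other mitotic genes, with the counts beside each bar. In JmjC, 27.2% of the spindle and cytokinesis genes were called higher beside 9.66% of all genes.

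Of the neuroblast markers, mira (Miranda), an adaptor of asymmetric division, was called lower in both mutants. The 7 markers came to 258 to 275 CPM in WT, 233 to 245 in L854F and 207 to 241 in JmjC. Without mira, the other 6 came to 117 to 132, 118 to 131 and 121 to 140.5 CPM, which overlap. Mira fell by 0.28 on the log2 scale in L854F (adjusted p = 0.0218) and by 0.54 in JmjC (adjusted p = 0.000816). In JmjC against WT, ase (Asense), a neuroblast transcription factor, rose by 0.26 (adjusted p = 0.026), and the other 5, among them dpn and wor, were not called. Neuronal markers summed to 4397 to 5196, 4544 to 5358 and 4748 to 5543 CPM in WT, L854F and JmjC, with nSyb, VAChT and Rdl called higher in JmjC. Glial markers summed to 1338 to 1597, 1156 to 1435 and 1695 to 2056 CPM, with alrm higher and moody lower in JmjC. Alrm alone made up 196 to 258, 217 to 324 and 679 to 776 CPM of these sums. Of the 7 glial markers, 3 had log2 fold changes above 0 in JmjC and 4 below, and 5 were not called. The genes listed as imaginal disc markers summed to 715 to 883, 756 to 864 and 793 to 907 CPM, with wg called lower in L854F (-1.43, adjusted p = 0.0159) and in JmjC (-1.13, adjusted p = 0.0298).

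Muscle markers and the hemocyte marker Pxn also differed. The 6 muscle markers, Mhc among them, summed to 14.6 to 54.2 CPM in WT, 3.06 to 22.4 in L854F and 3.86 to 13.3 in JmjC, with replicate 4 the highest in each group. All 6 had log2 fold changes below 0 in both mutants, with medians of -0.89 in L854F and -2.07 in JmjC. Mlc2, a muscle myosin light chain, was called lower in L854F (-2.59, adjusted p = 0.00174) and JmjC (-2.23, adjusted p = 0.000686), and Tm2, a muscle tropomyosin, in JmjC (-2.07, adjusted p = 0.0282). The 5 hemocyte markers summed to 94.3 to 112, 95.3 to 109 and 63.5 to 92.1 CPM in WT, L854F and JmjC, with Pxn (Peroxidasin) called lower in JmjC (-0.53, adjusted p = 0.00327). Pxn alone made up 84.3 to 97.1, 84.0 to 100.3 and 53.2 to 75.7 CPM of these sums. Hml (0.26), eater (0.17) and NimC1 (-0.25) were not called in JmjC against WT, and He was not tested there. Of 8 genes listed as sex markers, 3 were tested. LncRNA:roX2, at 12.8 to 20.7 CPM in WT and 25.6 to 29.3 in JmjC, was called higher in JmjC (0.66, adjusted p = 0.00421). LncRNA:roX1 (0.32, adjusted p = 0.109) and Yp3 (0.66, adjusted p = 0.05) were not. L854F lay below JmjC for lncRNA:roX2 (-0.55, adjusted p = 0.00223) and Yp3 (-0.88, adjusted p = 0.00598). The part of these cell types, and of sex, in the results was not tested.

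The whole set moved little in any one sample. Relative to the WT mean, the median log2 ratio over 90 genes was -0.026 to 0.025 in the WT samples, 0.034 to 0.050 in the L854F samples and 0.046 to 0.091 in the JmjC samples. The ranges did not overlap between WT and either mutant, and those of L854F and JmjC did. In JmjC against WT, 63 of the 92 tested were not called.

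In the authors' deposited table for JmjC, 27 of 99 had an adjusted p under 0.05, beside 12.4% of all genes in that table, 25 of them higher and 2 lower. Of the 27, edgeR called 26. The authors' deposited table for L854F gave 10 of 98, beside 4.72%, 9 higher and 1 lower, with Act42A, Act5C, Sep1 and pnut beyond the 6 called by edgeR. Of these genes, the authors' deposited table for JmjC marks 2 of 99 as up and 0 as down, beside 340 up and 138 down of all 13909. That for L854F marks 0 of 98 in either direction, beside 74 up and 71 down of all 13758.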

How the data were processed

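The 2 deposited tables give, per the file headers, RSEM expected counts per gene for WT with L854F and for WT with JmjC. The submitters' processing notes name Bowtie2 2.2.5, RSEM 1.2.12, DESeq2 and build dm6. The annotation and strand setting used for counting are not given in the sources used here. The deposited counts were already whole numbers. The authors' comparison tables hold, per the file headers, a log2 fold change, a p-value and an adjusted p-value per gene, and a mean expression signal per group that the authors computed and that was not used here.

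EdgeR 4.0.16 (R 4.3.3) was run separately on the 8 samples of every comparison: filterByExpr (minimum count 10, minimum total 15), TMM scaling, quasi-likelihood F-test, and Benjamini-Hochberg adjustment over all genes tested. An adjusted p under 0.05 made a call. Genes present in both tables entered L854F against JmjC. CPM values use TMM factors over all 12 samples, and TPM values the deposited length. Positions are 1-based from BDGP6.54, matched by FlyBase identifier for all 99 genes. The scripts were tested on simulated data.

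Depth was 15103631 to 16850705 counts per sample. Variation between samples, as the root of edgeR's common dispersion, came to 9.57%, 9.58% and 9.73% in the 3 comparisons, and the chi-square per degree of freedom between replicates ran from 8.51 to 29.4 over 18 pairs. Floors cover counting error only, since PCR copies are not independent molecules.

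Samples were grouped by their titles. Deviations of same-numbered samples from their group means correlated at 0.172, 0.136, 0.103 and 0.107 in L854F against JmjC, all over 0.1, so the replicate number was taken to pair those samples, from the data and not from the labels. L854F replicate 3 correlated more with a JmjC sample of another number (0.149), so the pairing is uncertain. The adjusted p-values given for this comparison come from the fit without the block, except where the block or another alternative is named. The block changed no other call among the named genes of that comparison than those given in the report.

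The genes, roles, marker lists and tests were chosen with earlier results of these data known. Named genes are kdm5, those called in any comparison (at most the 14 with the smallest adjusted p per comparison and direction), and the 2 with the highest WT level per length in each role. Listed genes of other processes are named where called. Genes named otherwise are given as examples of uncalled genes or said to be chosen after their values were seen. Alternatives were 2 other scalings, DESeq2 1.42.0, no filter, a minimum count of 50, robust dispersion, the replicate block, all 12 samples in 1 fit, a threshold of 0.01 and leaving out each sample. Promoter sequences were not used here. The values of 1 gene, which stays in the counts over all genes, are not reported here.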

Additional observations from a re-analysis of the deposited data

Results flagged for a closer look

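Among 135 groups of 4 samples of the 45 named genes, 3 held a sample whose gap to the nearest other, divided by the range, passed Dixon's critical value for 4 samples, where chance alone flags about 1 in 20 groups. These were Chro in JmjC, with replicate 3 the lowest (ratio 0.834), Sep5 in WT, with replicate 1 the lowest (0.851), and dgt3 in WT, with replicate 4 the highest (0.884).

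The 2 mutants share their WT samples, so their difference was tested directly between L854F and JmjC. It passed for 21 named genes. L854F was lower for alphaTub67C (log2 difference -1.06), del (-0.83), Det (-0.74), Spc25 (-0.64), borr (-0.44), Sep5 (-0.42), mars (-0.42), thr (-0.39), pbl (-0.36), CycB (-0.35), aurA (-0.35), smt3 (-0.32), Klp61F (-0.29), Incenp (-0.28), asp (-0.24), tacc (-0.24) and alphaSnap (-0.18). L854F was higher for Act5C (0.36), eIF4EHP (0.36), CG10068 (0.31) and Sec5 (0.29).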

How the results depend on the processing

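In L854F against WT, 6 genes were called. This became 1 at an adjusted p under 0.01 and 12 with DESeq2, and leaving out 1 sample gave 1 to 6 (1 without L854F replicate 1, and 2 without WT replicate 1 or 2). In JmjC against WT, 29 became 20 at 0.01 and 24 to 30 with 1 sample left out. In L854F against JmjC, 22 became 12 at 0.01 and 14 to 24 with 1 sample left out, the 14 being without JmjC replicate 1 or L854F replicate 1. The other scalings, filters and fits kept each count within 1.5 times. The kdm5 difference between the mutants turned from 0.01 to -0.013 with library totals, both uncalled; the cause was not tested.

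Del alone of the 6 named calls for L854F held at 0.05 in all 16 refits. For JmjC, 22 of 26 held in every refit that tested them, as did 14 of 21 between the mutants. CG32318 was tested in 14 of the 16 refits of JmjC against WT, and alphaTub67C in 15. Of the calls that held, 1, 20 and 12 also had a reported adjusted p under 0.01. None of the named calls changed sign. Of 71 named values uncalled throughout, 29 changed sign, all within 0.11 of 0 on the log2 scale in the fit reported.

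Against WT the replicate number paired no samples by the rule (same-number correlations 0.011 to 0.133 for L854F and -0.094 to 0.095 for JmjC). The replicate block gave 4 and 27 calls there, and 25 between the mutants. Among the named genes against WT, CycB3, feo and scra lost their call for L854F, and alphaSnap, aurB and dgt3 for JmjC. No named gene gained a call against WT, so both counts include calls gained outside the named genes. The promoter motif search was not run, since no promoter sequence was at hand. Low counts limit alphaTub67C and CG32318.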
